A study of Mus musculus with 2 samples.

Results

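The serotonin receptor genes of the mouse were followed in cerebral cortex. The 10 members are Htr1a, Htr1b, Htr1d, Htr1f, Htr2a, Htr2c, Htr3a, Htr4, Htr5a and Htr7. They were found by gene symbol in the deposited transcript tables, and each symbol led to 1 gene identifier, so they are 10 of 55536 gene rows. They have 29 annotated transcripts.

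Total RNA was sequenced from left cerebral cortex, taken from 2 males aged 2 months. They were B6CASTF1/J mice, hybrids of C57BL/6J with CAST/EiJ, and the labels name no treatment. The input was 300 ng of RNA per library, with synthetic ERCC transcripts as spike-ins. The labels number the libraries as biological replicates of 1 group, here replicate 2 and replicate 1, so the data hold no condition to compare and the spread between the animals is the only error available. Hybrid animals carry a CAST/EiJ copy of each autosome while reads were assigned to the C57BL/6J build mm10, and the effect of mismatches on the receptor counts was not measured.

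Serotonin reaches the cortex along axons of neurons in the raphe nuclei of the brainstem, and its receptors lie on cortical neurons and on axon endings. Most of the receptors act through G proteins: the Htr2 receptors through Gq to phospholipase C, the Htr1 and Htr5 receptors through Gi/o to lower cyclic AMP, and the Htr4, Htr6 and Htr7 receptors through Gs to raise it. Htr3a instead encodes a subunit of a cation channel that serotonin opens directly, and in mouse cortex it is known from interneurons of caudal origin.

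The annotated transcript forms of 3 members differ by short stretches that change the receptor protein, and these stretches are printed from GENCODE M21 transcripts on mm10. In Htr2c, form Htr2c-207 skips the 95 bases in capitals, at chrX:147169676-147169770 on the plus strand, and its reading frame is 172 amino acids long against 459 in Htr2c-201.
Htr2c-201: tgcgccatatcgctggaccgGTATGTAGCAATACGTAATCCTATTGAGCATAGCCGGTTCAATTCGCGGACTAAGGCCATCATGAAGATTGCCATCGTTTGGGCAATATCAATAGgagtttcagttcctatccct
Htr2c-207: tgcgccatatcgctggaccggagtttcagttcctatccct
The skipped bases hold the stretch of Htr2c in which adenosines are known to be edited to inosine, at chrX:147169686-147169700, in capitals here.
Htr2c editing stretch: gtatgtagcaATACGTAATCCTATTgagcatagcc
The edited stretch ends 70 bases before the end of the skipped bases, so Htr2c-207 cannot carry it. Editing itself was not analysed here.

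In Htr3a, form Htr3a-202 lacks the 18 bases in capitals, at chr9:48899991-48900008 on the minus strand. Its channel subunit has 483 amino acids, against 489 in Htr3a-201.
Htr3a-201: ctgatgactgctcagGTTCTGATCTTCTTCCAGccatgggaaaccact
Htr3a-202: ctgatgactgctcagccatgggaaaccact
In Htr7, form Htr7-205 holds 5 further bases, in capitals, at chr19:35969304-35969308 on the minus strand. They bring a stop codon, and the receptor has 435 amino acids, against 448 in Htr7-202.
Htr7-205: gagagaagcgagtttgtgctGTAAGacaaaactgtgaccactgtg
Htr7-202: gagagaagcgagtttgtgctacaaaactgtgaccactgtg
Form Htr7-204 carries an extra exon of 58 bases at chr19:36041555-36041612 on the minus strand and is annotated as a target of nonsense-mediated decay, the pathway that removes messages with an early stop codon.
Htr7-204 extra exon: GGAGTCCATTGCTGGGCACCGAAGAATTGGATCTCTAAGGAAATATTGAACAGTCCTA

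Levels are given in TPM, a transcript abundance scaled by length and library so that genes can be set side by side. The main values are those of the deposited gene tables. A second deposited set of transcript tables, made from the reads of 1 sequence file per library and called the other quantification here, gives a separate estimate. In bulk tissue, fewer cells of a type and less RNA per cell cannot be told apart.

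All 10 members were detected, meaning at least 1 TPM in both libraries, where 27% of all gene rows and 58.8% of the protein-coding genes of the nuclear genome were. Since the members were chosen with earlier results of these data known, this count is a description. Their TPM summed to 57.39 in replicate 2 and 62.29 in replicate 1, or 59.8 ± 3.46 (SD, n = 2). The sum was 84.8 ± 6.02 TPM in the other quantification. In reads the members were a small part of each library, where replicate 2 gave them 4866 counts, or 0.0152% of gene counts, and replicate 1 gave them 5512, or 0.0168%. All genes together had 32032064 counts in replicate 2 and 32866353 counts in replicate 1.

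The Gq-coupled receptors led the family. Htr2a, the receptor through which serotonergic hallucinogens act, lies at chr14:74640840-74709494 on the plus strand (ENSMUSG00000034997.5). It had 12.93 TPM in replicate 2 and 13.12 TPM in replicate 1, from 1522 and 1573 counts, a mean of 13.025 ± 0.134 TPM (SD, n = 2). Its 1 annotated transcript has 3 exons and encodes 471 amino acids. Among the detected protein-coding genes of the nuclear genome, Htr2a stood at percentile 43.8 of mean TPM. It was the highest member in both libraries and in both quantifications, with 18.8 TPM in each animal in the other one.

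Htr2c, known for its very high level in choroid plexus and for RNA editing, spans chrX:146962513-147197277 on the plus strand (ENSMUSG00000041380.13). It had 11.43 TPM in replicate 2 and 12.05 TPM in replicate 1, from 977 and 1148 counts, a mean of 11.7 ± 0.438 TPM (SD, n = 2). Htr2a stood above Htr2c by 1.11 ± 0.0300 times within an animal, and the libraries of these genes did not overlap. Together the pair had 24.8 ± 0.573 TPM, which was 41.4 ± 1.44% of the summed receptor TPM (SD, n = 2). Next below came Htr5a, and Htr2c exceeded it by 1.79 ± 0.0457 times (SD, n = 2).

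The 5 Gi/o-coupled members held 23.5 ± 1.99 TPM, or 39.3 ± 1.06% of the sum (SD, n = 2), and spread over more than a 2-fold range. Htr5a, a receptor found mainly in brain, lies at chr5:27842149-27855088 on the plus strand (ENSMUSG00000039106.6). It had 6.49 TPM in replicate 2 and 6.60 TPM in replicate 1, from 732 and 758 counts. The animals lay closer together for Htr5a than for Htr1a or Htr1b, with an SD of 0.0778 TPM.

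Htr1a, the receptor that lowers the firing of raphe neurons and of cortical pyramidal cells, lies at chr13:105443639-105448122 on the plus strand (ENSMUSG00000021721.5). It has 1 exon, and its single transcript of 4484 bases encodes 421 amino acids. Its level was 5.13 TPM in replicate 2 and 6.26 TPM in replicate 1, from 481 and 598 counts. Htr1b, a receptor of axon endings that lowers transmitter release, lies at chr9:81628291-81633828 on the minus strand (ENSMUSG00000049511.5). Its level was 5.06 TPM in replicate 2 and 6.55 TPM in replicate 1, from 377 and 537 counts. Htr1a and Htr1b overlapped between the animals, and their ratio within an animal was 0.985 ± 0.0411 (SD, n = 2), so the data give no order between them. For both genes the lower library was replicate 2, and the SD was 0.799 TPM for Htr1a and 1.05 TPM for Htr1b.

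The remaining Gi/o members were lower. Htr1f, a target of migraine drugs, lies at chr16:64924729-65105854 on the minus strand (ENSMUSG00000050783.5) and had 2.94 TPM in replicate 2 and 3.07 TPM in replicate 1, from 156 and 166 counts. Htr1d, which is close to Htr1b in sequence and is another target of migraine drugs, lies at chr4:136423524-136444398 on the plus strand (ENSMUSG00000070687.11). It was the lowest member by mean, with 2.51 TPM in replicate 2 and 2.47 TPM in replicate 1, from 67 and 96 counts. The TPM of Htr1d in the animals was nearly equal although its counts were not, and the transcript forms described below carry that difference. Htr1a exceeded Htr1f by 1.89 ± 0.208 times within an animal, a gap that also separated the libraries in the other quantification.

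The Gs-coupled members, Htr7 and Htr4, had 8.72 ± 0.948 TPM together, or 14.6 ± 0.741% of the sum (SD, n = 2). Htr7, known for roles in circadian timing and body temperature, lies at chr19:35958734-36057507 on the minus strand (ENSMUSG00000024798.15). It had 5.98 TPM in replicate 2 and 6.33 TPM in replicate 1, from 348 and 385 counts. Htr4, a receptor studied for memory and mood, lies at chr18:62324204-62496577 on the plus strand (ENSMUSG00000026322.9). It had 2.07 TPM in replicate 2 and 3.06 TPM in replicate 1, from 90 and 136 counts. Htr7 exceeded Htr4 by 2.48 ± 0.580 times within an animal (SD, n = 2).

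The channel subunit gene Htr3a, at chr9:48899213-48911099 on the minus strand (ENSMUSG00000032269.8), had 2.85 TPM in replicate 2 and 2.78 TPM in replicate 1, from 116 and 115 counts. It made up 4.71 ± 0.356% of the summed TPM (SD, n = 2). The 11 marker genes of interneurons of caudal origin, the cells that hold Htr3a, summed to 571 TPM in replicate 2 and 570 TPM in replicate 1, most of it Cck and Lamp5. Lamp5 is also counted among the upper layer markers below, so this sum is not a measure of those interneurons alone. Of these 11, 2 were higher in replicate 2 beyond counting error and none was lower, where 11% of all genes compared were higher and 11.6% lower. Their sum in the other quantification was 1135 TPM in replicate 2 and 1042 TPM in replicate 1.

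**Figure D1:**
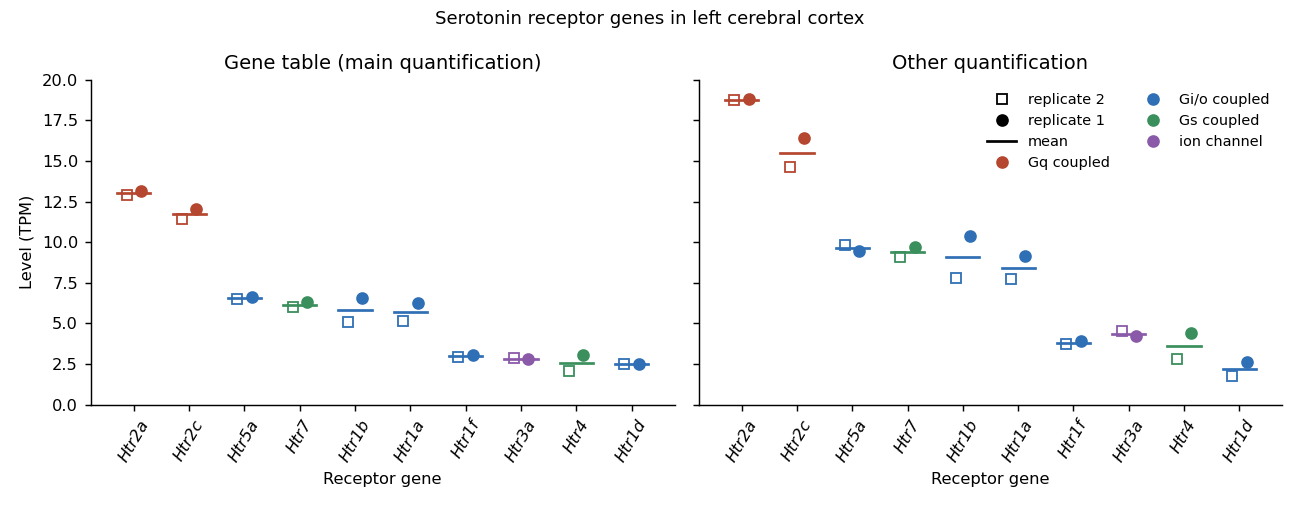
TPM of each receptor gene (vertical axis) in replicate 2 (open squares) and replicate 1 (filled circles), with the mean as a line and colour by coupling class, from the gene tables (left) and the other quantification (right). Htr2a and Htr2c stand above all other members in both panels, at 13.025 and 11.7 TPM on the left, and the lowest is Htr1d at 2.49 TPM.

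By mean TPM the order was Htr2a, Htr2c, Htr5a, Htr7, Htr1b, Htr1a, Htr1f, Htr3a, Htr4 and Htr1d. The libraries of neighbours overlapped for Htr7 and Htr1b, for Htr1b and Htr1a, for Htr3a and Htr4, and for Htr4 and Htr1d, so these pairs had no order beyond the spread in the gene tables. Htr5a stood above Htr7 by 1.06 ± 0.0301 times and Htr1f above Htr3a by 1.07 ± 0.0514 times (SD, n = 2) without overlap. Neither order held in the other quantification, where Htr5a and Htr7 overlapped and the ratio of Htr1f to Htr3a was 0.875 ± 0.0749. In turn Htr4 and Htr1d, which overlapped in the gene tables, were apart there, with Htr4 the higher by 1.64 ± 0.0394 times (SD, n = 2). The mean shares of the coupling classes in the other quantification were 40.5% for Gq, 39.1% for Gi/o, 15.3% for Gs and 5.17% for Htr3a. In its replicate 1 the Gi/o share of 39.9% was above the Gq share of 39.5%, so the order of these classes did not hold in every library. With protein-coding transcripts alone, a choice made after seeing the data, the Gs share was 7.71% in replicate 2 and 12.8% in replicate 1, or 10.3 ± 3.63% (SD, n = 2).

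Among detected protein-coding genes of the nuclear genome, Htr2c stood at percentile 40.7 of mean TPM, Htr5a at 25.2, Htr7 at 24.0, Htr1b at 22.9 and Htr1a at 22.4. Htr1f, Htr3a, Htr4 and Htr1d ran from percentile 11.6 for Htr1f to 9.005 for Htr1d. All members lay below the middle of the detected range.

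The 4 serotonin receptor genes of the mouse that are no members ranged from a level like that of Htr1f to no reads. Htr6, a Gs-coupled receptor, had 3.04 TPM in replicate 2 and 3.15 TPM in replicate 1. Htr5b, which is a pseudogene in humans, had 0.94 TPM in replicate 2 and 1.15 TPM in replicate 1. Htr2b, better known from heart valves, had 0.16 TPM from 3 counts in replicate 2 and 0.12 TPM from 5 counts in replicate 1. Htr3b, the partner subunit of Htr3a, was listed at 0 in both. Finding 0 counts still allows up to 3, or 0.0937 CPM (counts scaled by the library total) in replicate 2 and 0.0913 CPM in replicate 1, for counting error only. In the other quantification Htr3b had 1.00 count in replicate 2 and 2.51 in replicate 1, also under that limit.

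Receptors for other monoamines gave a scale for these levels. The 5 dopamine receptor genes summed to 15.9 TPM in replicate 2 and 25.5 TPM in replicate 1, the 9 adrenergic receptor genes to 93.2 TPM in replicate 2 and 93.5 TPM in replicate 1, and the 4 histamine receptor genes to 55.0 TPM in replicate 2 and 53.7 TPM in replicate 1. The highest of the 18 were Hrh3 at 38.2 ± 0.453 TPM, Adra1d at 28.4 ± 0.849 TPM and Adrb1 at 19.6 ± 1.41 TPM, all above Htr2a. Hrh1 and Hrh2 had 9.97 ± 1.00 and 6.19 ± 0.354 TPM (SD, n = 2), and Hrh4 was listed at 0.

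**Figure D2:**
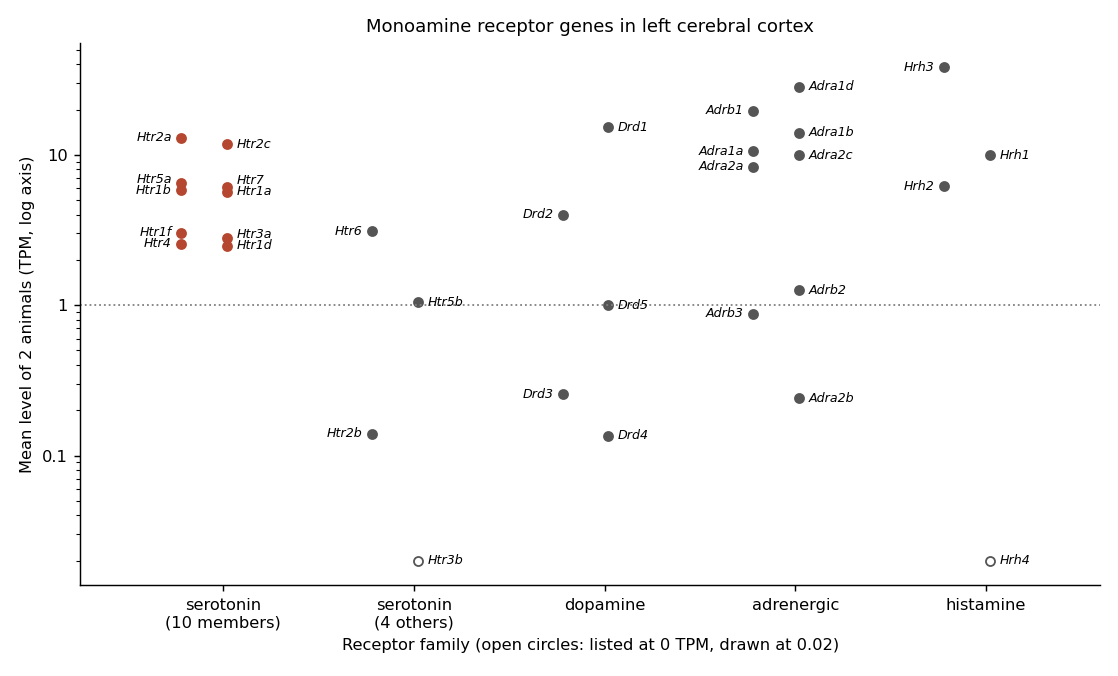
Mean TPM of 2 animals on a log axis for the 10 serotonin receptor members, the 4 other serotonin receptor genes and the dopamine, adrenergic and histamine receptor genes; open circles mark genes listed at 0 and the dotted line marks 1 TPM. The members, chosen with earlier results known, lie between 2.49 and 13.025 TPM. The dopamine, adrenergic and histamine families each reach above that range and hold genes below 1 TPM or listed at 0. For dopamine only Drd1, also a striatum marker here, does so, at 15.3 TPM. In the other quantification Drd1 lay below Htr2a (18.8 TPM in each animal), at 13.7 TPM in replicate 2 and 14.6 TPM in replicate 1. The serotonin receptor genes that are no members also hold such genes, with Htr2b at 0.14 TPM and Htr3b listed at 0.

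The animals were compared on counts scaled by TMM, edgeR's normalisation for library composition, as the log2 ratio of replicate 2 over replicate 1. A ratio of 1 animal to 1 animal cannot be tested, and its exact 95% interval covers counting error only. None of the 10 members was 2-fold apart, where 1.8% of the 18490 genes compared were. Beyond counting error, 5 members were lower in replicate 2 and none was higher, where 11.6% of all genes were lower, 11% higher and 22.6% apart in either direction. The median log2 ratio of the members was -0.16, against 0.00 over all genes, and 9 of 10 members were below 0, where 49.9% of all genes were. Scaling by the spike-ins moved the median of all genes to 0.32 and that of the members to 0.16, so the members' direction between the animals turned. The members stayed 0.16 below the median gene, a distance that a shift common to all genes cannot change. The members' median minus that of all genes was -0.060 on log2(TPM + 1), -0.069 on log2(TPM + 0.1) and -0.20 in the other quantification. In the other quantification none of the members was 2-fold apart (2.27% of genes were), and again 5 members were lower and none higher beyond counting error, where 13.4% of genes were lower, 11.5% higher and 24.9% either. There too 9 of 10 members were below 0, as were 49.6% of genes.

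Of the 5 members lower in replicate 2 under TMM, Htr4 had a log2 ratio of -0.55 (interval -0.97 to -0.17) and Htr1b one of -0.48 (-0.67 to -0.29). Htr1d followed at -0.48 (-0.96 to -0.023), Htr1a at -0.28 (-0.46 to -0.11) and Htr2c at -0.20 (-0.33 to -0.077). With spike-in scaling none of these intervals stayed below 0, and the values of Htr1a and Htr2c turned to 0.037 and 0.12. The other 5 members had intervals that held 0 under TMM: Htr7 at -0.11, Htr1f at -0.058, Htr5a at -0.019, Htr2a at -0.017 and Htr3a at 0.043. With spike-in scaling Htr2a and Htr5a were higher in replicate 2 beyond counting error, at 0.30 each. The deposited intervals of gene TPM, whose level is not given in the sources used here, told the animals apart for Htr1a and for no other member, at 4.54 to 5.42 TPM in replicate 2 and 5.59 to 6.57 TPM in replicate 1.

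**Figure D3:**
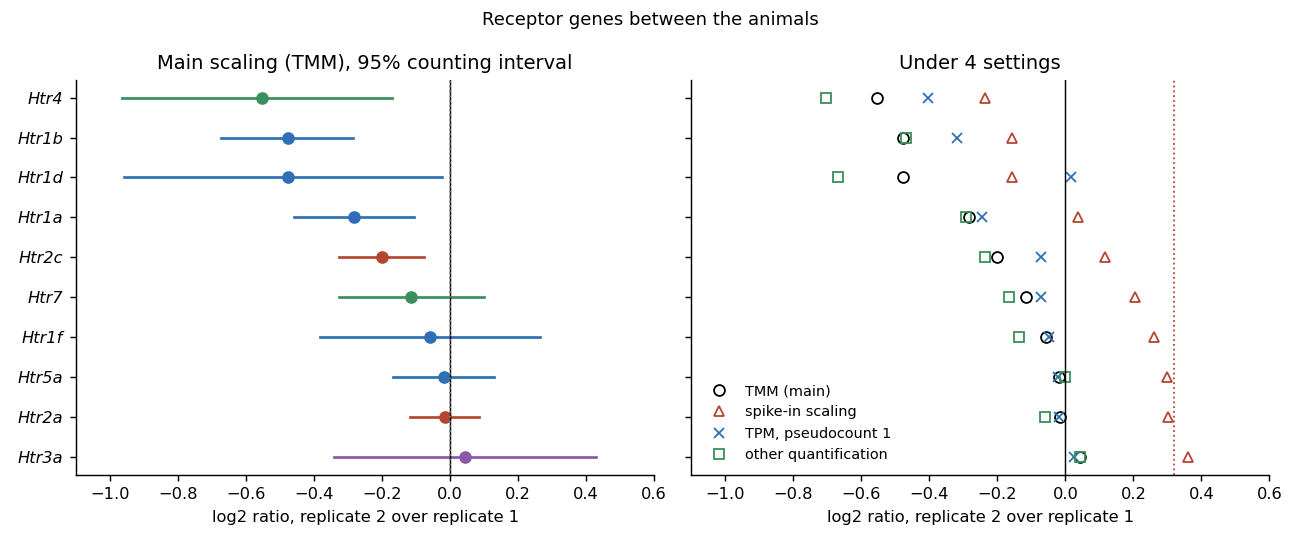
Log2 ratio of replicate 2 over replicate 1 for each member, under TMM with its exact 95% counting interval (left) and under 4 settings (right); dotted lines mark the median of all genes, near 0 on the left and at 0.32 with spike-in scaling on the right. Under TMM 5 members lie below 0 with their whole interval, while spike-in scaling moves every member up by the same amount and turns the sign of Htr1a and Htr2c among those 5.

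The 5 marker genes of cortical excitatory neurons summed to 2687 TPM in replicate 2 and 2599 TPM in replicate 1, led by Camk2a, Nrgn and Slc17a7. That sum alone does not establish the tissue. Markers of neighbouring tissue moved between the same libraries. All 10 striatum markers were lower in replicate 2 beyond counting error, 4 of them at least 2-fold, and their TPM summed to 211 in replicate 2 and 372 in replicate 1; none was at 0. Drd2, which marks striatal projection neurons and was the monoamine receptor gene farthest from 0, had a log2 ratio of -2.05. The 10 deep layer markers summed to 219 TPM in replicate 2 and 244 TPM in replicate 1, with 7 lower beyond counting error. For the 5 markers of claustrum and piriform cortex, all of them lower, replicate 2 had 208 TPM and replicate 1 had 233 TPM. The 6 upper layer markers summed to 449 TPM in replicate 2 and 429 TPM in replicate 1, with 3 higher. Other lists moved too. All 4 oligodendrocyte markers were lower beyond counting error, at 579 TPM in replicate 2 and 715 TPM in replicate 1. Of 6 hippocampus markers 2 were lower, and of 5 tested markers of medial interneurons 3 were lower, with none higher in either list. Thalamus had 2 lower and 1 higher, astrocytes 3 lower and 1 higher, and microglia none either way. These calls are those under TMM, where 11.6% of all genes compared were lower and 11% higher. Spike-in scaling brings a shift of 0.32, which turns the median log2 ratios of deep layer (-0.21), claustrum (-0.25) and oligodendrocyte (-0.27) markers. The shift is smaller in size than the median log2 ratio of the striatum markers (-0.84). The part of these marker differences in the receptor values was not tested.

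Under TMM, choroid plexus markers moved the opposite way to Htr2c, an order that spike-in scaling does not keep. The 8 markers summed to 94.4 TPM in replicate 2 and 11.3 TPM in replicate 1, most of it Ttr, the transthyretin gene, with 89.16 TPM in replicate 2 and 8.58 TPM in replicate 1. Of the 5 markers with enough counts, 3 were higher in replicate 2 beyond counting error, where 11% of all genes compared were. Of the whole list only Folr1 was listed at 0, in replicate 1. Under TMM the log2 ratio of Htr2c was -0.20, lower in the library with more choroid plexus RNA, and with spike-in scaling it was 0.12. How much of the Htr2c RNA came from choroid plexus was not tested.

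Of the genes that make, store, move and break down serotonin, the breakdown enzymes stood highest. Maoa had 7.90 ± 0.495 TPM and Maob 7.53 ± 0.396 TPM, followed by Slc29a4, a low-affinity serotonin transporter of the plasma membrane, at 4.27 ± 0.240 TPM (SD, n = 2). Only 4 of these 11 genes were detected. None of the 7 with enough counts differed between the animals beyond counting error, where 22.6% of all genes compared did. The ratio farthest from 0 was that of Gch1, which makes the cofactor of tryptophan hydroxylase, at 0.59 on the log2 scale from 32 counts in replicate 2 and 21 in replicate 1. Markers of raphe neurons, named here outside the rule for named genes, were near 0. Tph2, the serotonin-making hydroxylase of neurons, had 0.35 TPM in replicate 2 and 0.31 TPM in replicate 1, and Fev was listed at 0 in both. Slc6a4, the serotonin transporter, had 0.18 TPM in replicate 2 and 0.02 TPM in replicate 1, from 3 counts and 1 count. The 6 markers of raphe and midbrain together had 1.08 TPM in replicate 2 and 1.32 TPM in replicate 1, and none of them was detected. These are the levels of the tissue that receives the serotonin axons, whose cell bodies lie elsewhere.

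The leading signalling partners stood well above the receptors, while others such as Gna14 at 0.075 ± 0.0212 TPM and Plcb3 at 5.095 ± 0.262 TPM (SD, n = 2) did not. Gna14 is named here after its value was seen. The 8 genes of Gi/o coupling summed to 681 TPM in replicate 2 and 706 TPM in replicate 1, led by the G protein subunits Gnao1 at 310 ± 13.8 TPM, Gnai2 at 90.5 ± 2.69 TPM and Gnai1 at 76.2 ± 3.07 TPM (SD, n = 2). The potassium channel gene Kcnj6 had the log2 ratio farthest from 0 in that list, at 0.16, and 4 of the 8 were lower and 2 higher in replicate 2 beyond counting error. The 8 genes of Gq coupling summed to 459 TPM in replicate 2 and 450 TPM in replicate 1, led by the calcium release channel Itpr1 at 209 ± 4.25 TPM, the phospholipase Plcb1 at 81.5 ± 0.778 TPM and Gnaq at 76.8 ± 1.24 TPM. Of the 7 with enough counts, 1 was lower and 1 higher, and the ratio farthest from 0 was -0.075, for Plcb3. For the 10 genes of Gs coupling the sum was 1474 TPM in replicate 2 and 1595 TPM in replicate 1, led by Gnas at 821 ± 50.4 TPM, the kinase subunit Prkacb at 217 ± 8.73 TPM and the adenylyl cyclase Adcy1 at 135 ± 6.85 TPM. In this list 6 were lower and 2 higher, with Adcy5, a cyclase enriched in striatal neurons, farthest from 0 at -0.46. Adcy5 was nearly level in the other quantification, with 78.04 TPM in replicate 2 and 79.18 TPM in replicate 1. There the sum of the Gs list was the higher in replicate 2, at 2637 TPM against 2599 TPM in replicate 1. The 11 genes of receptor partners and RNA editing summed to 772 TPM in replicate 2 and 774 TPM in replicate 1. They were led by the scaffold gene Dlg4 at 361 ± 0.481 TPM, the arrestin gene Arrb1 at 84.5 ± 3.31 TPM and Adarb1, an enzyme that edits Htr2c transcripts, at 61.8 ± 0.580 TPM. In this list Cnr1, the cannabinoid receptor, was the gene farthest from 0 at -0.17, and 1 gene was lower and 1 higher. Over all genes compared, 11.6% were lower and 11% higher beyond counting error. Many counts make narrow intervals, so small ratios were called in these lists too. Gnao1 was called at -0.046, from 18294 counts in replicate 2 and 19302 in replicate 1. The shift of 0.32 under spike-in scaling turns the ratios of Plcb3 and Cnr1 and leaves the sign of those of Adcy5 and Kcnj6.

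A gene's counts can also be shared with its neighbours. In the main tables the deposited estimates gave a posterior SD of 0 to the count of each of the 10 members in both libraries, so no reads were divided between a member and another gene. The exons of Htr1b overlap those of D430036J16Rik, a noncoding gene on the opposite strand at chr9:81631551-81645156, which had 35 counts in replicate 2 and 81 in replicate 1. Its count too was the lower in replicate 2. Whether counting used strand is not stated for these tables. Gm32335 lies opposite Htr3a without exon overlap and had 0 counts in replicate 2 and 1 in replicate 1. The other quantification gave Gm32335 20.7 counts in replicate 2 and 9.18 in replicate 1. The introns of Htr2c hold 8 annotated genes for small RNAs, of which Gm24627 had 1 count in replicate 1 and the rest none in either library.

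Transcript forms add detail for the 6 members with more than 1 annotated transcript. Htr1a, Htr1f, Htr2a and Htr5a have 1 each. A form's share is its percent of the gene's TPM, as the deposited tables divide the gene's reads among its forms. The form with the highest mean share was the same in both quantifications for 4 of the 6, and differed for Htr1d and Htr7. For Htr4 it was the same by the mean and not in each library.

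Htr2c was carried mainly by Htr2c-201, which encodes the whole receptor of 459 amino acids. Its share was 63.4% in replicate 2 and 79.6% in replicate 1, or 71.5 ± 11.4% (SD, n = 2). The other quantification gave a mean of 75.1%. Htr2c-207, the form printed above without the edited stretch, had 18.99% in replicate 2 and 12.1% in replicate 1, from 211 and 144 expected counts. The other quantification gave it 20.03% in replicate 2 and 10.01% in replicate 1. With the short form Htr2c-203 included, forms for a truncated receptor had 18.99% in replicate 2 and 14.8% in replicate 1, while the 2 retained-intron forms had 3.85% in replicate 2 and 3.24% in replicate 1. Htr2c-205, a noncoding form of 648 bases, had 13.7% in replicate 2 and 2.41% in replicate 1, from 18.45 and 3.45 expected counts, and in the other quantification 4.33% in replicate 2 and 0% in replicate 1. In both quantifications the share of Htr2c-207 was the larger in replicate 2. The deposited TPM intervals of Htr2c-207 overlapped, at 0.711 to 3.55 TPM in replicate 2 and 0.408 to 2.52 TPM in replicate 1, as did those of Htr2c-201.

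Htr7-202, which encodes the receptor of 448 amino acids, took 0.502% of the TPM in replicate 2 and 39.8% in replicate 1, from 1.75 and 162 expected counts. The other quantification gave it 0% in replicate 2 and 8.71% in replicate 1, and the deposited TPM intervals of the main tables overlapped, reaching up to 1.61 TPM in replicate 2 and starting at 0.715 TPM in replicate 1. Htr7-204, with the extra exon printed above, had 47.7% in replicate 2 and 18.3% in replicate 1. Its shares in the other quantification were 35.7% for replicate 2 and 27.3% for replicate 1. Htr7-205, with the 5 bases that bring a stop codon, was more even, at 26.8% in replicate 2 and 26.2% in replicate 1. The other quantification had it at 31.7% for replicate 2 and 35.4% for replicate 1. The deposited TPM intervals of these forms were wide. For Htr7-205 they ran from 0.0717 to 2.06 TPM in replicate 2 and from 0.319 to 2.46 TPM in replicate 1. For Htr7-204 they ran from 1.35 to 3.38 TPM in replicate 2 and from 0.0778 to 2.29 TPM in replicate 1. Forms annotated for nonsense-mediated decay together had 70.4% of the Htr7 TPM in replicate 2 and 28.9% in replicate 1. The other quantification put them at 65.7% for replicate 2 and 51.5% for replicate 1. With the coding forms alone, Htr7 had 1.77 TPM in replicate 2 and 4.50 TPM in replicate 1. Its gene total, which does not depend on this split of reads, was 348 counts in replicate 2 and 385 in replicate 1.

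In Htr3a the form without the 18 bases led, as Htr3a-202 had 81.8% of the TPM in replicate 2 and 90.6% in replicate 1. The other quantification put it at 66.1% for replicate 2 and 68.5% for replicate 1, so the longer subunit was the minor form in each of the 4 estimates. Htr3a-201 rested on 22.0 expected counts in replicate 2 and 11.2 in replicate 1.

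For Htr1b both forms encode the same receptor of 386 amino acids and differ in their untranslated parts, with Htr1b-202 at 71.1 ± 5.74% (SD, n = 2) and 63.1% in the other quantification. The deposited TPM intervals of Htr1b-202 did not overlap, at 2.88 to 3.72 TPM in replicate 2 and 4.29 to 5.31 TPM in replicate 1. In Htr4 the form Htr4-204, for 387 amino acids, had 69.9% in replicate 2 and 72.9% in replicate 1. The other quantification gave 15.5% for replicate 2, where Htr4-202 led with 33.2%, and 56.5% for replicate 1. The deposited TPM interval of Htr4-204 ran from 3.87e-05 to 1.49 TPM in replicate 2 and from 0.728 to 2.56 TPM in replicate 1. By counts in the main tables Htr4-201, for 388 amino acids, led with 60.3% of the reads. Htr4-201 has 4661 bases and Htr4-204 has 1203, so the same reads give different shares per read and per length.

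Htr1d shows how a short form can carry a TPM. Htr1d-204, a noncoding form of 363 bases, received only 8.43 counts in replicate 2 and 5.36 in replicate 1, yet carried 59.4% of the Htr1d TPM in replicate 2 and 37.7% in replicate 1. It had no reads in the other quantification. The coding forms, all for 374 amino acids, had 1.02 TPM in replicate 2 and 1.54 TPM in replicate 1. The other quantification put the whole gene at 1.74 TPM in replicate 2 and 2.64 TPM in replicate 1, where all its reads lay on coding forms, so the near equal TPM of Htr1d in the gene tables rests on fewer than 10 counts of 1 noncoding form.

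**Figure D4:**
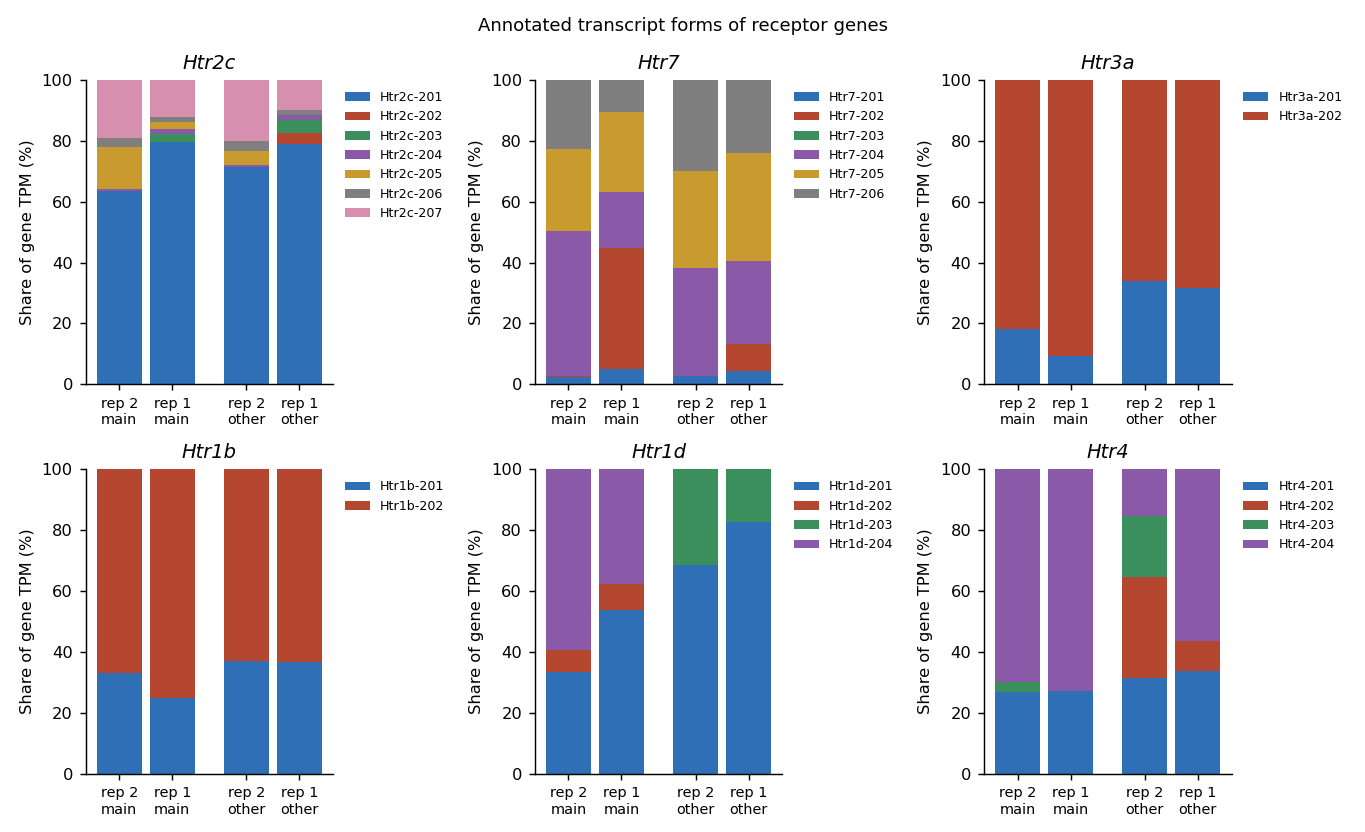
Percent of each gene's TPM held by each annotated transcript form (stacked bars) for the 6 members with several forms, in replicate 2 and replicate 1, from the main tables (left pair of bars) and the other quantification (right pair). Htr2c-201 leads Htr2c in all 4 bars at 63.4% or more, whereas the leading forms of Htr7, Htr1d and Htr4 are not the same in all 4 bars.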

How the data were processed

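Libraries were grouped by the labels into 1 group of 2 animals with their replicate numbers. The authors deposited, per the file headers, expected counts (estimated read counts that need not be whole) and TPM per gene and per transcript, built from reads aligned to GENCODE M21 transcripts (mm10). They also deposited a second estimate of counts and TPM made from the reads of 1 sequence file per library, whose part of the library is not given. Its counts summed to 33464140 in replicate 2 and 33424292 in replicate 1, against 32032064 and 32866353 in the main tables. No replicates were pooled. The deposited bounds of TPM intervals were used as given. Which aligner and quantification program were used is not given in the sources used here.

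The 10 members, lists and named genes were chosen with earlier results of these data known. Named genes are all members, every gene of the described lists of 4 or fewer, and otherwise the highest 3 of a list and the gene with the log2 ratio farthest from 0. Spike-ins and rows naming no gene (26249 rows, 2.48e-05% and 1.78e-05% of counts in replicate 2 and replicate 1) were left out of library sizes. Expected counts were rounded, the comparison took genes whose mean count reached 10, and log2 ratios used TMM with a prior count of 2 (edgeR 4.0.16, R 4.3.3). Intervals of ratios are exact conditional binomial (Clopper-Pearson, 95%, scipy 1.17.1). They cover only counting error, because they are built from 1 count per animal and hold no spread between animals. PCR reads lacking molecular identifiers may repeat a molecule, which the intervals do not take into account. Alternatives were the other quantification, spike-in scaling, size factors of DESeq2 1.42.0, ratios of TPM and other minimums. The ratio step was run on simulated counts that held counting error alone, the error its intervals assume. That run checks the calculation and says nothing of the spread between animals.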

Additional observations from a re-analysis of the deposited data

How the results depend on the processing

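The summed TPM of the members was 84.8 in the other quantification, 130 when TPM was rescaled to protein-coding genes of the nuclear genome, and 54.3 with protein-coding transcripts only, a choice made after seeing the data. It ranged from 57.39 to 62.29 with either animal left out. At 5 TPM in both libraries 6 members were detected, in place of 10. The median log2 ratio was 0.16 with spike-in scaling, -0.059 on log2(TPM + 1) and -0.068 on log2(TPM + 0.1), against -0.16 in the main comparison. With a count minimum of 100, which leaves out Htr1d, it was -0.10 over 9 members and 4 of them were apart beyond counting error. Members apart beyond counting error numbered 2 with spike-in scaling, in place of 5. Under spike-in scaling the ratio of Htr1a was 0.037 and that of Htr2c 0.12, and the ratio of Htr1d was 0.017 on log2(TPM + 1) and 0.022 on log2(TPM + 0.1). The median share of the forms that led by mean in the main tables was 71.2%, with 65.2% to 74.0% when either animal was left out. For these same forms it was 49.6% in the other quantification, where Htr1d-204 had 0%, and 58.9% as a share of counts. Other forms led in the other quantification for Htr1d and Htr7, and by counts for Htr1d and Htr4. The 49.6% and 58.9% are therefore not shares of the forms that led under those settings. DESeq2 size factors, a prior count of 0.5 and the other quantification changed no member's direction or call. The cause of these differences was not tested. TPM settings give no counting interval. Leaving out an animal leaves no ratio, and with few counts Htr1d and Htr4 have the widest intervals. No paired analysis was possible because the labels give a single group.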
